A study of Mus musculus with 34 samples.

Results

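A list of 10 genes of the integrated and endoplasmic reticulum (ER) stress responses, Atf4, Atf5, Ddit3, Chac1, Trib3, Asns, Sesn2, Phgdh, Psat1 and Hspa5, was followed in mouse embryonic stem cells (mESCs) deprived of leukemia inhibitory factor (LIF) with or without the honey bee protein Royalactin. The genes were chosen by name for their place in these pathways, with earlier results of these data known. All 10 were found among the 23366 rows of the deposited gene table. The cells were of the J1 line, which carries no genetic change according to the labels, and each condition, serum/-LIF or serum/-LIF + Royalactin, gave 2 libraries. Whether the replicates were separate cultures is stated only for the series as a whole, as biological duplicates at least. Royalactin, purified as a recombinant protein from Chinese hamster ovary cells, was present at 0.5 mg/ml. Both conditions shared the gelatin coating, the serum and a supplement of non-essential amino acids, and neither contained LIF. The labels give passage number 40 for all of these cells, whereas the methods of the study describe 10 passages, and no serum/+LIF RNA library was used here. Each measurement is the normalized count of a gene, that is, its reads divided by a size factor of the library.

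In the integrated stress response, kinases that sense unfolded protein, amino acid shortage, double-stranded RNA or haem deficiency phosphorylate the translation factor eIF2α. General translation falls, while the messenger RNA of the transcription factor ATF4 is translated better, and ATF4 turns on genes for amino acid synthesis and uptake, redox balance and, under lasting stress, cell death. The unfolded protein response of the ER uses the same route through the kinase PERK, beside the IRE1 and ATF6 branches that raise chaperones such as BiP, the product of Hspa5. In proliferating stem cells, asparagine and serine synthesis serve protein, nucleotide and one-carbon metabolism.

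The libraries held 14737796 to 17597818 reads on genes, of which the ribosomal RNA precursor Rn45s took 21.6% to 46.6% in serum/-LIF and 9.08% to 38.4% in serum/-LIF + Royalactin. Of 10 mESC markers, 5 were higher with Royalactin at an adjusted p under 0.05 in limma, which 0.493% of tested genes passed in either direction. These were Sox2, Zfp42, Esrrb, Tfcp2l1 and Klf4, named after their values were seen. Without overlap of the groups 7 were higher and 1 was lower, against 19.7% and 18.9% of all tested genes. The lower marker was Tdgf1, with 10914 and 14553 normalized counts in serum/-LIF and 8696 and 9728 with Royalactin, while Pou5f1 and Utf1 overlapped. The 10 markers summed to 25362 to 31397 in serum/-LIF and 35820 to 42564 in serum/-LIF + Royalactin. Fibroblast markers, 10 in all, summed to 95.2 to 164 in serum/-LIF and 70.2 to 97.6 with Royalactin. Only 3 of them had values high enough to be tested. Of these, Dcn had 37.4 and 31.1 without Royalactin and 0 and 0 with it. Thy1 (41.5 and 33.1 without, 45.3 and 29.6 with) and Pdgfra (52.2 and 0 without, 42.2 and 32.4 with) overlapped between the conditions. Pdgfrb and Fap were at 0 reads in all 4 libraries. The 10 markers of extraembryonic endoderm summed to 2021 to 3696 and 2104 to 2519, and 7 of them were tested. Without overlap 2 were lower (28.6%, against 18.9% of all tested genes) and 1 higher (14.3%, against 19.7%). The lower ones were Col4a1 (1541 and 839 without, 658 and 663 with) and Dab2 (284 and 245 without, 188 and 126 with). The higher one was Gata4 (28.1 and 8.28 without, 49.3 and 44.7 with). The 6 haematopoietic markers summed to 104 to 193 and 117 to 129, with Cd52, Hbb-b1 and Tyrobp at 0 reads. Among these 6, Laptm5 was higher with Royalactin without overlap (21.4 and 5.18 without, 77.4 and 45.4 with). Coro1a was lower without overlap (81.6 and 187 without, 51.3 and 71.6 with). The part of cells with these markers in the differences below was not tested. In bulk RNA, fewer cells of a kind and less RNA per cell cannot be told apart.

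Of the 10 genes, 8 were lower in both serum/-LIF + Royalactin libraries than in both serum/-LIF libraries, namely Atf4, Ddit3, Chac1, Trib3, Asns, Phgdh, Psat1 and Hspa5. Such a separation was seen in 18.9% of the 12993 genes tested, and the opposite, seen in 19.7%, held for 0 of the 10. The median log2 fold change of the 10 genes was -0.51, against -0.01 for all tested genes. As the genes were chosen with earlier results of these data known, these values describe the list and do not test it. None of the 10 passed an adjusted p of 0.05 in limma after Benjamini-Hochberg adjustment over all tested genes, a limit that 0.493% of tested genes passed. At an unadjusted p under 0.05, 2 of the 10 remained, Ddit3 and Phgdh, against 9.34% of tested genes. With the limits given in the study's methods, a 2-fold change or more together with an unadjusted p under 0.05, only Ddit3 was selected, and the same limits selected 7.13% of tested genes in either direction and 3.61% as lower with Royalactin.

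**Figure D1:**
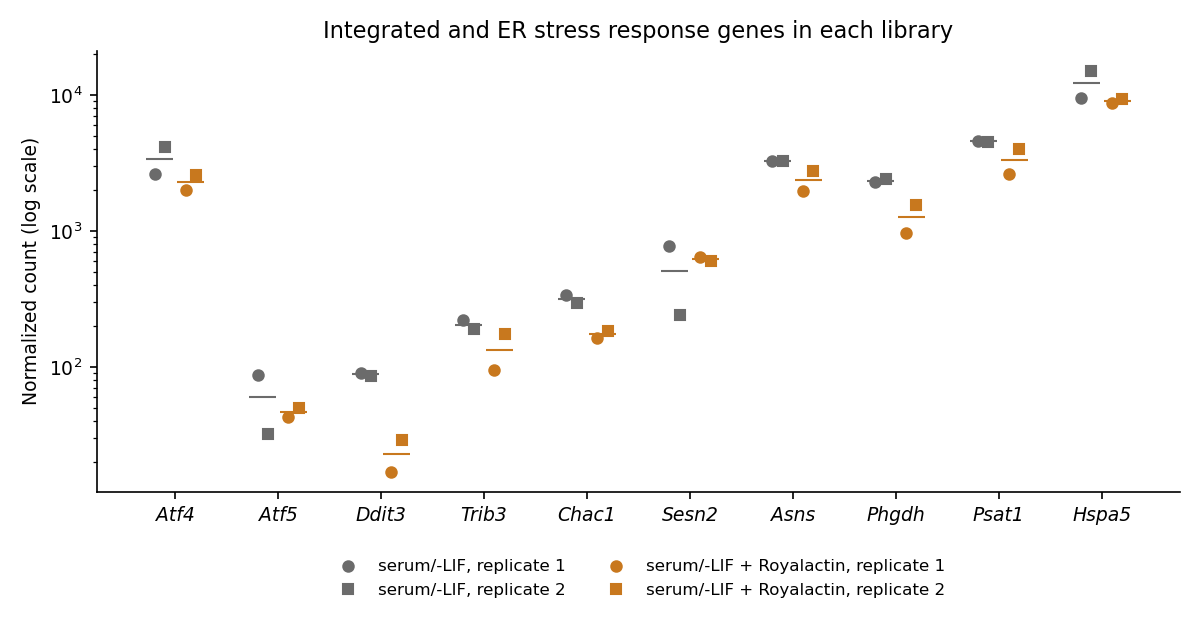
Normalized counts of the 10 genes on a log axis, with 1 point per library (grey, serum/-LIF; orange, serum/-LIF + Royalactin; circles, replicate 1; squares, replicate 2) and short lines at the mean of each condition. The orange points lie under both grey points for 8 genes, with the widest gap for Ddit3, whereas for Atf5 and Sesn2 they lie between them.

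Promoter sequence was examined for the binding elements of these pathways. The core of the C/EBP-ATF response element, TGATGNAA, through which ATF4 acts, was searched on both strands in windows of 300 bases around the annotated starts (RefSeq, GRCm38.p6), as was the ER stress response element, CCAAT followed after any 9 bases by CCACG. All 10 genes matched a window. The C/EBP-ATF core was found in 3 of them, Chac1, Trib3 and Asns, and in 4.51% of all 27025 genes with a window. The ER stress element was found in Hspa5 alone among the 10, and in 0.137% of all genes. The match of Trib3, TGATGTAA, lies past the start of transcription on the opposite strand and its surroundings are not shown. The other 3 promoters are shown for their 250 bases before the start, 5′ to 3′ on the strand of the gene, with the matched letters in capitals. For Chac1 the capitals read as the reverse complement of the core, 193 to 186 bases before the start, for Asns they lie 23 to 16 bases before the start, and for Hspa5 the ends of the element stand at 65 and 47 bases before the start.
Chac1, chr2:119350992-119351241, plus strand: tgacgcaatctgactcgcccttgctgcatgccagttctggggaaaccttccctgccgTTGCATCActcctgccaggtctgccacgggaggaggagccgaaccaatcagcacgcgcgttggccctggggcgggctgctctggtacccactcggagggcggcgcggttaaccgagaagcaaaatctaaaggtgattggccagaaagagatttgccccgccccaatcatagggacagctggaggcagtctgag
Asns, chr6:7693210-7693459, minus strand: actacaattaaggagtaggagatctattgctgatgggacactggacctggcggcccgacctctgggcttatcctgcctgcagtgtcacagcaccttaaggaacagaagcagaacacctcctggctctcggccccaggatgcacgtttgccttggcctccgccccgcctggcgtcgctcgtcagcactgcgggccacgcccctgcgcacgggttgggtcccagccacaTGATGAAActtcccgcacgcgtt
Hspa5, chr2:34771840-34772089, plus strand: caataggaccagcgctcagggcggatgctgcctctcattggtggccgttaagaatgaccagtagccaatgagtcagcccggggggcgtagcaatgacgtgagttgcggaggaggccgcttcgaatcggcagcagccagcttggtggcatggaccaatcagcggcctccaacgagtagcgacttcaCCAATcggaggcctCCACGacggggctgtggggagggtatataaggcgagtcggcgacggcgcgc
A match is a description of these letters, and the absence of a match in the other 6 genes says only that the letters are not in these windows.

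Atf4, the transcription factor at the centre of the response (chromosome 15, 80085614 to 80087970 of mm9), had 2629 and 4125 normalized counts without Royalactin and 2012 and 2590 with it. Both Royalactin values were the lower ones, but the higher of them lay just under the lower serum/-LIF value, and the serum/-LIF replicates differed 1.57-fold. The log2 fold change was -0.53 (95% confidence interval -1.21 to 0.15; limma, Benjamini-Hochberg adjusted p = 0.662). Since ATF4 is controlled mainly at translation, these RNA values do not measure its protein.

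Atf5, a related factor that is translated under the same control (chromosome 7, 52067627 to 52072028), was weakly expressed, at 88.3 and 32.1 normalized counts in serum/-LIF and 43.3 and 50.2 with Royalactin. The groups overlapped, with the serum/-LIF replicates 2.75-fold apart and 31 to 73 reads in each library. Its log2 fold change of -0.19 had a wide interval, from -1.83 to 1.45, and without serum/-LIF replicate 1 it was 0.53. Exons of Nup62 and Il4i1 on the opposite strand overlap 4.12% of its exon bases, and whether counting used the strand is not given in the sources used here.

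Ddit3, which encodes CHOP, the partner of C/EBP factors linked to cell death in lasting ER stress (chromosome 10, 126727830 to 126733344), showed the widest separation of the 10. Its normalized counts were 90.9 and 85.9 in serum/-LIF and 17.1 and 28.9 in serum/-LIF + Royalactin, or 88.4 ± 3.56 and 23.0 ± 8.35 (SD, n = 2). The mean with Royalactin was thus 26.0% of that in serum/-LIF, with a log2 fold change of -1.94 (standard error 0.76, 95% confidence interval -3.57 to -0.31). In limma its unadjusted p was 0.0232, with a Benjamini-Hochberg adjusted p = 0.415. These values rest on 68 and 83 reads in serum/-LIF and 17 and 42 with Royalactin. The unadjusted p was 0.113 without serum/-LIF + Royalactin replicate 1 and 0.056 without serum/-LIF replicate 1, each with a fold change still past 2. Exons of Mars on the opposite strand overlap 3.97% of its exon bases.

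Trib3, a pseudokinase that ATF4 and CHOP induce and that dampens their activity (chromosome 2, 152163158 to 152169768), had 221 and 190 normalized counts in serum/-LIF and 94.5 and 175 with Royalactin. The Royalactin replicates differed 1.85-fold, more than for any other member of the list, and the higher came close to serum/-LIF. The log2 fold change of -0.67 therefore had an interval from -1.71 to 0.37 (limma, Benjamini-Hochberg adjusted p = 0.730), and it was -0.23 without serum/-LIF + Royalactin replicate 1.

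Chac1, an enzyme that degrades glutathione and a sensitive target of the ATF4 route (chromosome 2, 119176965 to 119180117), was separated more evenly. It had 337 and 297 normalized counts in serum/-LIF and 165 and 183 with Royalactin, and the mean with Royalactin was 54.9% of the serum/-LIF mean. The replicates lay within 1.13-fold and 1.11-fold of each other. Even so, with a log2 fold change of -0.86 (95% confidence interval -1.73 to 0.01) it did not pass in limma, where its unadjusted p was 0.0517, with a Benjamini-Hochberg adjusted p = 0.542. With any library left out its log2 fold change stayed between -0.95 and -0.77, the narrowest such range of the 10 genes.

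Sesn2, a sestrin that restrains the growth kinase complex mTORC1 and responds to ATF4 as well as to p53 (chromosome 4, 132047947 to 132066416), was the only gene of the list with a higher mean log2 value with Royalactin. It had 774 and 242 normalized counts in serum/-LIF and 644 and 607 with Royalactin. The Royalactin values lay between the serum/-LIF replicates, which were 3.20-fold apart. Its log2 fold change was 0.53 (95% confidence interval -0.46 to 1.52; limma, Benjamini-Hochberg adjusted p = 0.781), and the direction turned with the serum/-LIF library used, at 1.36 without replicate 1 and -0.31 without replicate 2. Sesn2 and Atf5, the members whose groups overlapped, have the highest GC content in their exons of the 10, 58.7% and 60.2%, next to 46.2% to 57.8% in the others. After correction for GC content and exon length their log2 fold changes were 0.48 and -0.12.

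The genes for amino acid synthesis were all expressed strongly. Asns, the asparagine synthetase (chromosome 6, 7625169 to 7643254), had 3274 and 3277 normalized counts in serum/-LIF and 1958 and 2749 in serum/-LIF + Royalactin. The serum/-LIF values were nearly equal and both Royalactin values lay under them, 1.40-fold apart from each other. Its log2 fold change was -0.50 (95% confidence interval -1.14 to 0.14; limma, Benjamini-Hochberg adjusted p = 0.662).

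Phgdh, the enzyme of the first step of serine synthesis from glycolysis (chromosome 3, 98117093 to 98143913), had 2279 and 2426 normalized counts in serum/-LIF and 966 and 1567 with Royalactin, or 2352 ± 104 and 1266 ± 425 (SD, n = 2). Every Royalactin value was under every serum/-LIF value. The log2 fold change of -0.93 (standard error 0.32, 95% confidence interval -1.61 to -0.26) had the smallest unadjusted p of the 10 genes in limma, 0.0106, and a Benjamini-Hochberg adjusted p = 0.320. It was -0.58 without serum/-LIF + Royalactin replicate 1 and -1.28 without replicate 2. Of 26 tiles of 75 bases cut from its exons, 17 had a second match elsewhere in mm9 at no more than 2 mismatches, against 0 tiles of the other 9 genes, which makes the counts of Phgdh uncertain.

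Psat1, the aminotransferase of the next step (chromosome 19, 15979168 to 16021827), had 4608 and 4547 normalized counts in serum/-LIF and 2617 and 4029 with Royalactin. Here too the serum/-LIF values were close together and the Royalactin values lower and 1.54-fold apart. Its log2 fold change of -0.50 was similar to that of Asns (95% confidence interval -1.16 to 0.17; limma, Benjamini-Hochberg adjusted p = 0.678). For Psat1 and Asns the difference shrank to -0.18 and -0.25 without serum/-LIF + Royalactin replicate 1.

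Hspa5, the ER chaperone BiP and the classical readout of the unfolded protein response (chromosome 2, 34627490 to 34632051), was the most abundant of the 10. It had 9492 and 15067 normalized counts in serum/-LIF and 8794 and 9326 with Royalactin. The values of 3 libraries lay close together and only serum/-LIF replicate 2 stood above them. The log2 fold change was -0.40 (95% confidence interval -1.14 to 0.33; limma, Benjamini-Hochberg adjusted p = 0.775), and without serum/-LIF replicate 2 it was -0.07.

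**Figure D2:**
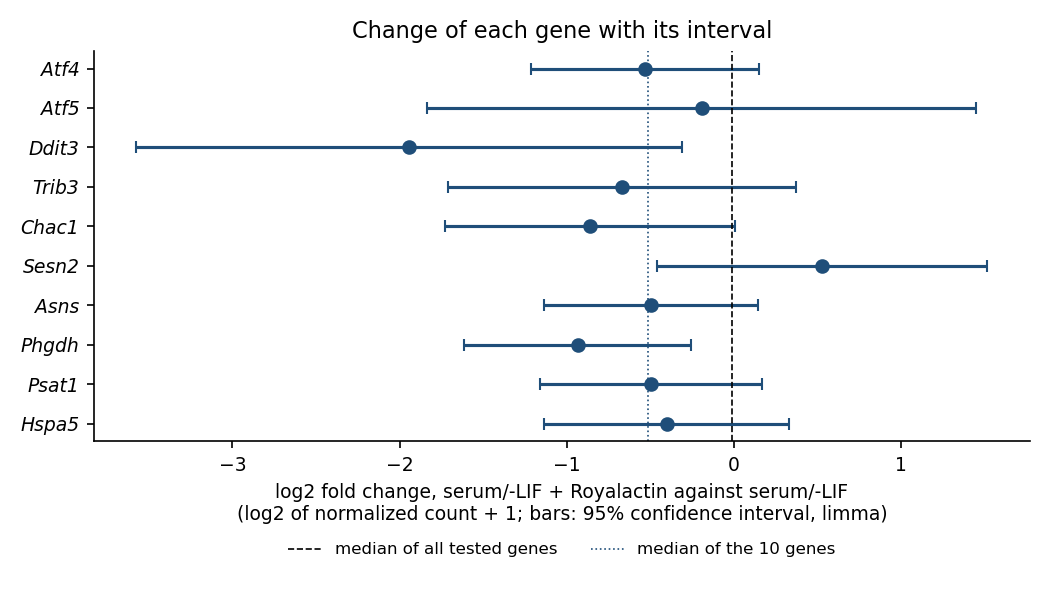
Log2 fold change of each gene in serum/-LIF + Royalactin against serum/-LIF (log2 of normalized count + 1), with 95% confidence intervals from limma, not adjusted for the number of genes. The points of 9 genes lie left of the dashed median of all tested genes at -0.01, and the intervals of Ddit3 and Phgdh alone lie wholly below 0.

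Replicates of the same condition also differed across the list. Of the 10 genes, 9 were lower in serum/-LIF + Royalactin replicate 1 than in replicate 2, with Sesn2 as the exception, whereas 49.8% of all tested genes were lower in that library. Between the serum/-LIF replicates, 4 of the 10 were lower in replicate 1, against 48.3% of all tested genes. For Atf4 and Hspa5 the gap between the serum/-LIF replicates, 1.57-fold and 1.59-fold, was wider than that between the Royalactin replicates, 1.29-fold and 1.06-fold. For Asns, Phgdh, Psat1, Ddit3 and Trib3 it was the Royalactin replicates that were further apart.

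**Figure D3:**
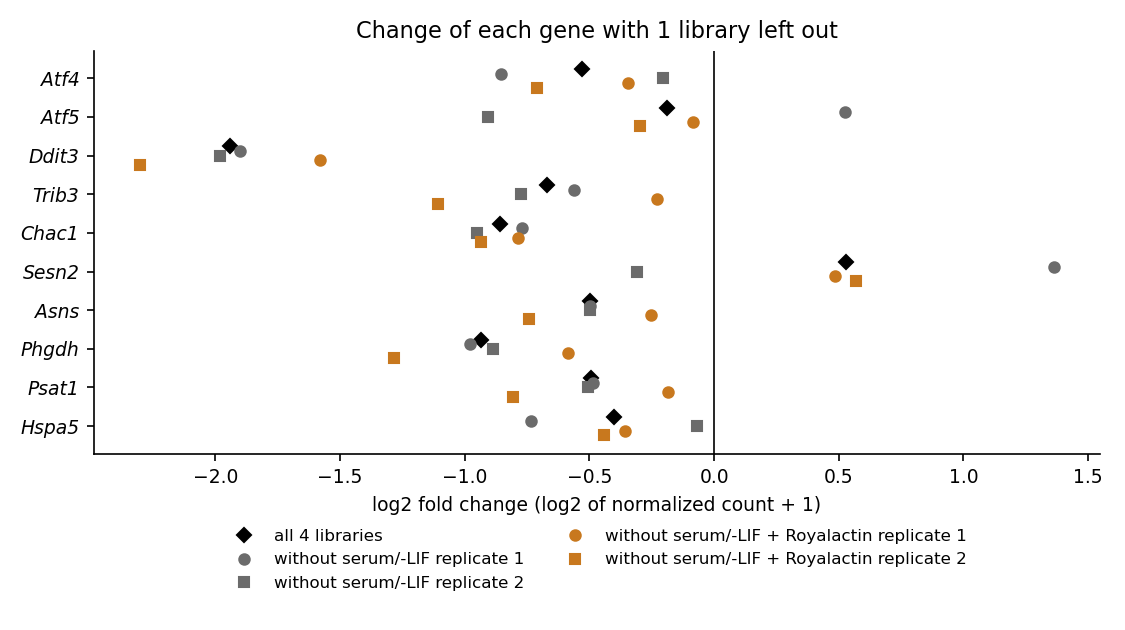
Log2 fold change of each gene with all 4 libraries (black diamonds) and with 1 library left out (grey, a serum/-LIF library; orange, a serum/-LIF + Royalactin library). Atf5 and Sesn2 cross 0, to 0.53 and -0.31. The other 8 genes remain below 0 in each case, which must hold for genes whose groups do not overlap.

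Levels between genes were compared per kilobase of exon, as normalized counts per kilobase over the 4 libraries. Hspa5 was highest, at 2503 to 4289 per kilobase, without overlap with the next gene, Atf4, at 1167 to 2393. Asns (716 to 1198), Psat1 (615 to 1083) and Phgdh (388 to 976) followed, and each range from Atf4 to Phgdh overlapped the next. A gap separated these from Sesn2 (69.7 to 223), Chac1 (101 to 206), Trib3 (44.5 to 104), Ddit3 (9.98 to 53.1) and Atf5 (16.1 to 44.3), whose neighbouring ranges again overlapped. The 3 biosynthetic enzymes, Atf4 and the chaperone thus formed the higher group, and Sesn2, Chac1, Trib3, Ddit3 and Atf5 the lower one.

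Beyond the list, 39 of 41 other ATF4 target genes passed the filter on low values. Of these, 29 were lower with Royalactin (median log2 fold change -0.23), as were 50.6% of all tested genes. The groups did not overlap for 14 genes that were lower (35.9% of the 39, against 18.9% of all tested genes) and for 1 that was higher (2.56%, against 19.7%). None of the 39 passed an adjusted p of 0.05 in limma. At an unadjusted p under 0.05 in limma there were 5, against 9.34% of all tested genes. The lowest log2 fold change was that of Slc7a11, the cystine and glutamate exchanger that supplies glutathione synthesis, with 100 and 98.3 normalized counts in serum/-LIF and 31.2 and 17.9 with Royalactin (-2.02; limma, Benjamini-Hochberg adjusted p = 0.377). Vldlr, Stc2, Slc1a4 and Pck2, named after their values were seen, were the other 4 with an unadjusted p under 0.05, with log2 fold changes of -1.63, -1.23, -1.18 and -0.97. At the other end, Slc38a2, a transporter of small neutral amino acids, had 5562 and 4432 normalized counts in serum/-LIF and 8170 and 6453 with Royalactin, a log2 fold change of 0.55. Psph, the last enzyme of serine synthesis, which is likewise named outside the rule, had 761 and 833 normalized counts in serum/-LIF and 499 and 673 with Royalactin.

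The genes upstream of ATF4 had mostly higher values with Royalactin. This list of 19 genes covers the eIF2 subunits, the eIF2α kinases, phosphatase subunits and the exchange factor eIF2B. It also holds Gcn1l1, Impact, Oma1, Nck1 and 0610009O20Rik. Genes with opposite roles, such as the kinases and the phosphatase subunits, are counted together, so the counts give no direction of pathway activity. Of the 19 genes, 14 were higher with Royalactin. Of all tested genes 50.6% were lower. Without overlap 8 of the 19 were higher (42.1%, against 19.7% of all tested genes) and 1 was lower (5.26%, against 18.9%). The median log2 fold change was 0.16. None of the 19 had an adjusted or an unadjusted p under 0.05 in limma. Oma1, a mitochondrial protease that relays mitochondrial stress to this pathway, had the highest value (log2 fold change 0.58), and Eif2s1, which encodes eIF2α itself, the lowest (-0.35), with 4612 and 9208 normalized counts in serum/-LIF and 5217 and 5037 with Royalactin. The kinases, given here for their role, had log2 fold changes of 0.16 (Eif2ak1, HRI), -0.06 (Eif2ak2, PKR), 0.36 (Eif2ak3, PERK) and 0.20 (Eif2ak4, GCN2). Phosphorylation of eIF2α was not measured.

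Among 13 tested ATF and C/EBP partners the median was -0.22. Without overlap 3 were lower (23.1%, against 18.9% of all tested genes) and 2 higher (15.4%, against 19.7%). In limma none had an adjusted p under 0.05, and 2 had an unadjusted p under 0.05, against 9.34% of all tested genes. Atf3, a stress-induced repressor downstream of ATF4, had 162 and 156 normalized counts in serum/-LIF and 50.3 and 58.5 with Royalactin, a log2 fold change of -1.53 (limma, Benjamini-Hochberg adjusted p = 0.375). Nupr1, a small stress-induced chromatin protein, went the other way, with 17.4 and 0 normalized counts in serum/-LIF and 45.3 and 84.7 with Royalactin (limma, Benjamini-Hochberg adjusted p = 0.395). Relatives of the 10 genes, 8 in all, had a median of 0.00, from Chac2 at -0.72 to Sesn1 at 0.54. Of these 8, 0 were separated without overlap, against 18.9% of all tested genes as lower and 19.7% as higher.

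The ER branches were mixed. Of 26 ER chaperones and folding enzymes, the class of Hspa5, 19 were lower with Royalactin, 6 of them without overlap (23.1%, against 18.9% of all tested genes), 2 were higher without overlap (7.69%, against 19.7%), and the median log2 fold change was -0.21. Fkbp2, a prolyl isomerase of the ER, was lowest at -0.90 (95% confidence interval -1.96 to 0.17). It had 160 and 208 normalized counts in serum/-LIF and 116 and 82.6 with Royalactin. Ero1lb, an oxidase for disulfide formation, was highest at 1.23 (95% confidence interval -0.30 to 2.76). It had 25.4 and 50.7 normalized counts in serum/-LIF, from 19 and 49 reads, and 105 and 70.2 with Royalactin. For the 11 tested transducers of the IRE1, XBP1 and ATF6 branches the median was 0.25. Without overlap 4 were higher (36.4%, against 19.7% of all tested genes) and 1 lower (9.09%, against 18.9%). Values ran from Creb3 at -1.07, with 199 and 320 normalized counts in serum/-LIF and 136 and 105 with Royalactin, to Creb3l2 at 0.66. In limma 0 genes of these groups had an adjusted p under 0.05. At an unadjusted p under 0.05 in limma there were 0 chaperones and folding enzymes and 1 transducer, Creb3, against 9.34% of all tested genes. The 17 genes of ER-associated degradation had a median of 0.05. The groups did not overlap for 3 that were lower (17.6%, against 18.9% of all tested genes) and 1 that was higher (5.88%, against 19.7%). The highest log2 fold change was that of Ube2j2, 0.57, but its groups overlapped. It had 169 and 17.6 normalized counts in serum/-LIF, 9.58-fold apart, with both Royalactin values between them. Its mean normalized count with Royalactin was 89.4% of that in serum/-LIF. Splicing of Xbp1 RNA, the direct sign of IRE1 activity, cannot be read from counts per gene.

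**Figure D4:**
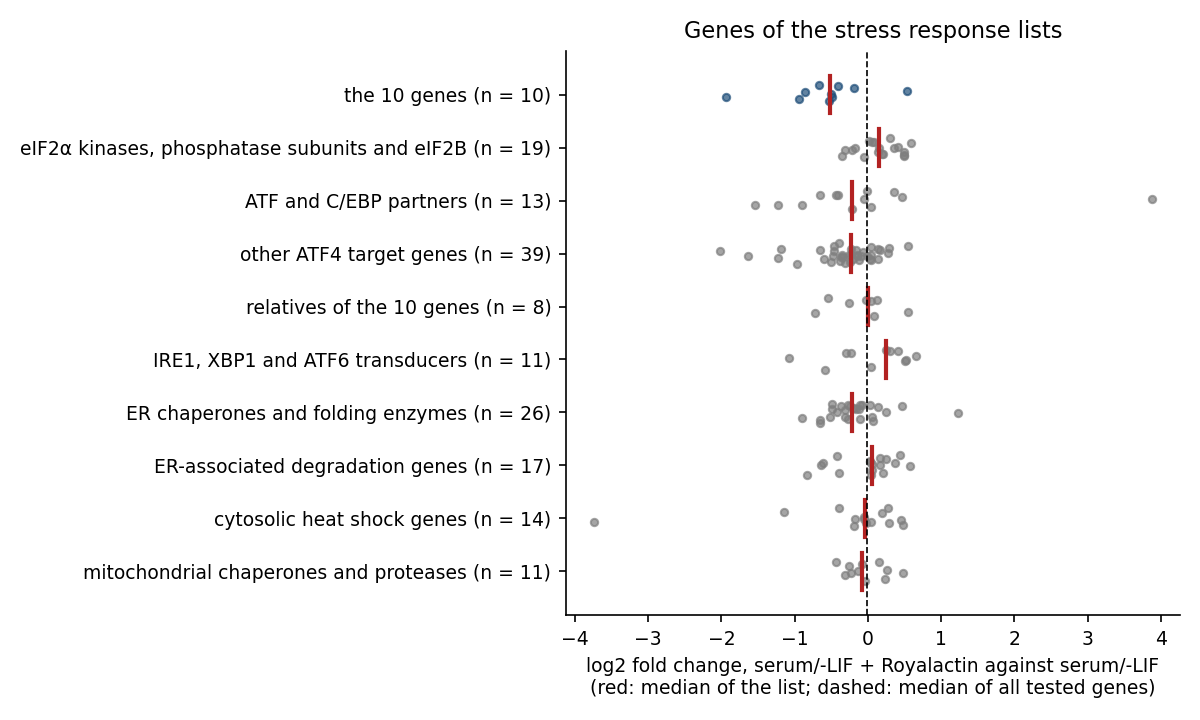
Log2 fold changes in serum/-LIF + Royalactin against serum/-LIF for the tested genes of each list, with 1 point per gene, a red line at the median of the list and a dashed line at the median of all tested genes, -0.01. The median of the 10 genes, -0.51, lies furthest to the left, followed by those of the other ATF4 target genes, the ATF and C/EBP partners and the ER chaperones.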

How the data were processed

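Total RNA depleted of ribosomal RNA was sequenced by the authors in single reads and aligned to mm9 with Tophat. The authors counted reads per gene with HTSeq-count and normalized them with DESeq. The deposited table, a signal proportional to reads, holds these normalized counts for 23366 rows and 4 libraries. In each library 100% of the values were whole multiples, to within 0.01 of a read, of the value of 1 read, from which read numbers were taken. All tests were run on the log scale and no count test was made. The strand setting and annotation are not given in the sources used here. The 30 chromatin accessibility samples were not analysed here.

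Libraries were grouped by their titles. Genes with a mean of at least 10 entered limma 3.58.1 (R 4.3.3) as log2(normalized count + 1), with a variance trend and two-sided p-values adjusted by Benjamini-Hochberg over the 12993 genes. Fold changes on this scale understate those of low genes. The procedure was tried on simulated counts with the same spread setting for all genes. That trial does not show how it performs at the spread of these libraries. With 2 libraries against 2, an exact permutation test of a single gene cannot go below p = 0.333. Read numbers limit the precision of low genes, and intervals do not cover errors shared by the libraries. The members and lists were chosen with earlier results of these data known. Named were all 10 members and, per pathway list, any gene with an adjusted p under 0.05 and the largest log2 fold change in each direction, except 1 gene that is not reported here. Gene positions and exons come from GENCODE vM1 (mm9), with a gene model for 94.6% of tested genes, and promoters from RefSeq (GRCm38.p6). Exon tiles of 75 bases were compared with the genome exactly, and reads across exon junctions were not covered. Alternatives were other pseudocounts (0.1 and 5), filters and scalings, limma without the trend, a correction for GC content and length, a replicate block, and each library left out.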

Additional observations from a re-analysis of the deposited data

How the results depend on the processing

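The number of tested genes with an adjusted p under 0.05 (limma, Benjamini-Hochberg), 64 as reported, was 32 with a pseudocount of 0.1, 34 without a filter, 99 at a mean of at least 50, 247 with the GC and length correction and 0 without the trend (1135 at an unadjusted p under 0.05). With 1 library left out it ranged from 0 to 60. It was 0 without serum/-LIF replicate 1 and without serum/-LIF + Royalactin replicate 2, with 2518 and 547 genes at an unadjusted p under 0.05, and 4 without serum/-LIF + Royalactin replicate 1. None of the 10 genes was called under these settings. With the replicate number as a block it was 391, and 785 with the GC and length correction as well, and in both 1 of the 10 genes was called, Phgdh (adjusted p = 0.036 and 0.00029). The highest adjusted p of Phgdh among the alternatives with 4 libraries was 0.628. The labels do not say that the numbers mark pairs, and the deviations of same-numbered libraries from the group means correlated at 0.0851 across genes, so the block was kept as an alternative. Replicate 1 had the higher Rn45s share in both conditions. The count of the 10 genes past both an unadjusted p of 0.05 and 2-fold ranged from 0 to 2 with 1 library left out. It was Sesn2 alone, higher with Royalactin, without serum/-LIF replicate 1 (15.2% of all tested genes), Ddit3 alone without serum/-LIF replicate 2 (7.52%), none without serum/-LIF + Royalactin replicate 1 (3.99%), and Ddit3 and Phgdh without replicate 2 (4.2%). The log2 fold change ranged from -0.91 to 0.53 for Atf5 and from -0.31 to 1.36 for Sesn2 with 1 library left out. The other 8 genes were below 0 throughout, which follows from the separation of their groups and adds nothing to it. Under every setting with 4 libraries the same 8 genes were separated between the groups. Pseudocounts, filters, the trend and the block cannot change the order of a gene's libraries. Only the scalings and the GC and length correction could have moved this result. Where 1 library was left alone in a condition, it was assumed to vary like the others. Scaling moved the median of all genes by less than 0.1. For each of these shifts the cause was not tested. Ddit3, Atf5 and the lists' low genes are limited by read number.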

Other observations

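Stress genes outside the ER and the ATF4 route showed no common direction. Of 14 tested heat shock genes of the cytosol, 8 were lower with Royalactin, and the median log2 fold change was -0.04. Without overlap of the groups 2 were lower and 2 higher (14.3% each, against 18.9% and 19.7% of all tested genes). None of the 14 had an adjusted p under 0.05 in limma, and 1 had an unadjusted p under 0.05, against 9.34% of all tested genes. This was Hspa1a, an inducible chaperone, with 32.1 and 34.2 normalized counts in serum/-LIF and 0 and 5.51 with Royalactin (limma, Benjamini-Hochberg adjusted p = 0.517). Its near-identical neighbour Hspa1b had 136 and 58.0 in serum/-LIF and 38.2 and 41.3 with Royalactin. Reads may be shared between these copies, which was not tested and leaves both values uncertain. Hspb1, a small heat shock protein, was at the other end of the list with a log2 fold change of 0.48. Its groups overlapped, with 702 and 478 normalized counts in serum/-LIF and 613 and 1068 with Royalactin. The 2 genes higher without overlap, named after their values were seen, were Hsp90aa1 and Hsph1. Hsp90aa1 had 54525 and 70175 in serum/-LIF and 77811 and 72987 with Royalactin, and Hsph1 1876 and 1531, and 2358 and 2299. The constitutive Hsp90ab1, also named outside the rule, had 22592 to 31574 normalized counts over the 4 libraries and overlapped between the conditions.

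Of 11 mitochondrial chaperones and proteases, 7 were lower with Royalactin, and the median log2 fold change was -0.08. Without overlap 0 were lower (against 18.9% of all tested genes) and 2 higher (18.2%, against 19.7%). None of the 11 had an adjusted or an unadjusted p under 0.05 in limma. Values ran from -0.44 for Hspe1, the partner of the chaperonin HSP60, to 0.48 for Afg3l2, a protease of the inner membrane.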
